A study of Mus musculus with 108 samples.

Results

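Zp1, Zp2, Zp3, Astl, Cd9, Cd81, Izumo1r and Plat encode the egg coat, the cortical granule proteases and the sperm-binding surface proteins of the mouse oocyte. They were chosen by symbol, from the Ensembl mouse gene identifiers of the deposited count files, and are 8 of the 55573 gene identifiers in those files. All 8 were found. The rule itself uses no measured value, but the genes were picked when earlier results of these data were known. The study sequenced RNA of single oocytes from control females and from females whose oocytes lack Exosc10, a nuclease subunit of the RNA exosome, through an oocyte-specific knockout. Oocytes were taken at 3 stages. GV oocytes are fully grown and arrested in prophase with an intact nucleus, the germinal vesicle. GV3h oocytes were kept for 3 h outside the animal in M2 medium, and MII eggs, ovulated and arrested at the second meiotic metaphase, came from the oviduct. PolyA libraries, made from RNA caught on oligo-dT beads, covered all 3 stages, and RiboMinus libraries, made with random primers from RNA not selected by its tail, covered GV and MII.

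The polyA control groups held 7 GV, 8 GV3h and 8 MII oocytes, and the polyA knockout groups 15, 11 and 15. The RiboMinus groups held 8 control and 7 knockout GV oocytes, and 3 control and 4 knockout MII eggs. All oocytes were mouse oocytes labelled control or knockout, and strain, age, the Cre driver and whether the controls carry Cre are not given in the sources used here. Oocyte-specific deletion is commonly driven by Cre under the promoter of Zp3, itself one of the 8 genes. The oocytes of each group came from 1 to 3 females, 16 in the polyA and 7 in the RiboMinus set, so oocytes of 1 female are not independent and p-values over oocytes measure the spread between oocytes. Among RiboMinus MII eggs the 3 controls share 1 mother, and effects of genotype cannot be told apart from effects of that animal.

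Libraries held 4638718 to 8735914 gene counts in the polyA set and 12319658 to 62675760 in the RiboMinus set. The targeted gene matched its labels: the group means of Exosc10 ran from 48.0 to 132.9 CPM (counts scaled to a common library total that was adjusted by edgeR's trimmed-mean factors) in the 5 control groups and from 0.527 to 3.54 CPM in the 5 knockout groups. No oocyte lacked the oocyte marker genes. These CPM are relative levels and not plain shares of a library, so a change in the RNA content of an oocyte cannot be told apart from a change of a gene, and a polyA level also depends on tail length at capture.

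The zona pellucida is the coat that surrounds the egg, built in the mouse from the secreted glycoproteins ZP1, ZP2 and ZP3, and sperm bind to the N-terminal part of ZP2. After fertilization cortical granules release ovastacin, the protease encoded by Astl, which cleaves ZP2 and ends sperm binding. The granules also release tissue plasminogen activator, encoded by Plat, whose stored mRNA in the mouse oocyte is a textbook case of a message with a short tail that is lengthened and translated when meiosis resumes. On the egg membrane Juno, encoded by Izumo1r, is the receptor of sperm IZUMO1, and the tetraspanins CD9 and CD81 take part in fusion. Many maternal mRNAs lose their tails and are degraded as the oocyte matures, whereas others gain a tail.

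Tail control is set by short motifs near the 3' end of an mRNA, and that end is shown for the 7 members other than Cd81, whose level was near 0. The lines give the 30-base stretch around the last AATAAA, the hexamer that directs cleavage and polyadenylation, from the representative GENCODE M21 transcript on GRCm38, 5' to 3' on the transcript strand, with the hexamer in capitals.
Zp1: ttaaatggactcAATAAAccattgtttgaa
Zp2: attggacttgcaAATAAAgagactgcagtt
Zp3: tatcccttccgcAATAAAagaagaaactca
Astl: ggaaaaggtagaAATAAAgttgggtgtttg
Cd9: aatttgatacatAATAAAagattataacag
Izumo1r: catggtaccttcAATAAAaggctaggaaac
Plat: ctgtacttaaatAATAAAttcagaggtatt
The last line is a second stretch of Plat, with TTTTAAT in capitals, 1 spelling of the cytoplasmic polyadenylation element that CPEB1 binds.
Plat, upstream: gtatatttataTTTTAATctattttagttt

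In the last 100 bases of the transcript, read on its own strand, AATAAA stood in 8 of 8 genes, against 61.13% of 21747 protein-coding genes. TTTTAT or TTTTAAT stood in 1 of 8 genes, Plat, against 16.476% of them, and TTTTAAT alone in 4.631%. The Pumilio motif TGTANATA stood in 0 of 8, against 3.968%. A match is a description of letters, not a tested site. The 3' untranslated regions of the zona genes are short, with 34 bases in Zp1, 49 in Zp2 and 13 in Zp3, against a median of 774 bases over the same protein-coding genes. In Zp3 the stop codon lies inside the hexamer. The other 5 genes have 877 (Astl), 395 (Cd9), 560 (Cd81), 333 (Izumo1r) and 738 (Plat) bases.

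The genes lie on GRCm38 at chr19:10914287-10920632 (Zp1, minus strand), chr7:120126772-120145291 (Zp2, minus), chr5:135980099-135988624 (Zp3, plus) and chr2:127338639-127357651 (Astl, plus). Plat lies at chr8:22757727-22782844 (plus), Izumo1r at chr9:14885814-14903949 (minus), Cd9 at chr6:125460266-125494791 (minus) and Cd81 at chr7:143052739-143067934 (plus). Each is a protein-coding gene and its reads were counted over exons. Exons of Cd9 share 218 bases with Gm26728, and exons of Cd81 share 104 bases with R74862, each on the opposite strand. The strand setting of the counting is not given in the sources used here, so reads in those bases cannot be assigned.

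In control GV oocytes the zona genes and Plat were the most abundant of the 8 per kilobase of transcript. Polyadenylated Zp2 averaged 1430 CPM per kb, Plat 1072, Zp3 1031, Zp1 390, Astl 310, Cd9 152, Izumo1r 126 and Cd81 1.66 CPM per kb. The neighbours Plat and Zp3, and Zp1 and Astl, differed by less than the larger of their SDs over oocytes, and Cd9 and Izumo1r by more. In control MII eggs the order was Plat at 2865, Astl at 299.2, Zp2 at 196.3, Zp3 at 131.1, Zp1 at 92.7, Izumo1r at 32.5, Cd9 at 21.9 and Cd81 at 2.38 CPM per kb. Plat and Astl thus stood first in the egg by polyA level. In RiboMinus control MII eggs, by contrast, Zp2 stood first at 400.7 CPM per kb, Zp3 at 296.7, Plat at 267.3 and Astl at 49.0. Levels of 1 gene in polyA and RiboMinus libraries differ in capture and scale, so they are set side by side and not subtracted.

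**Figure D1:**
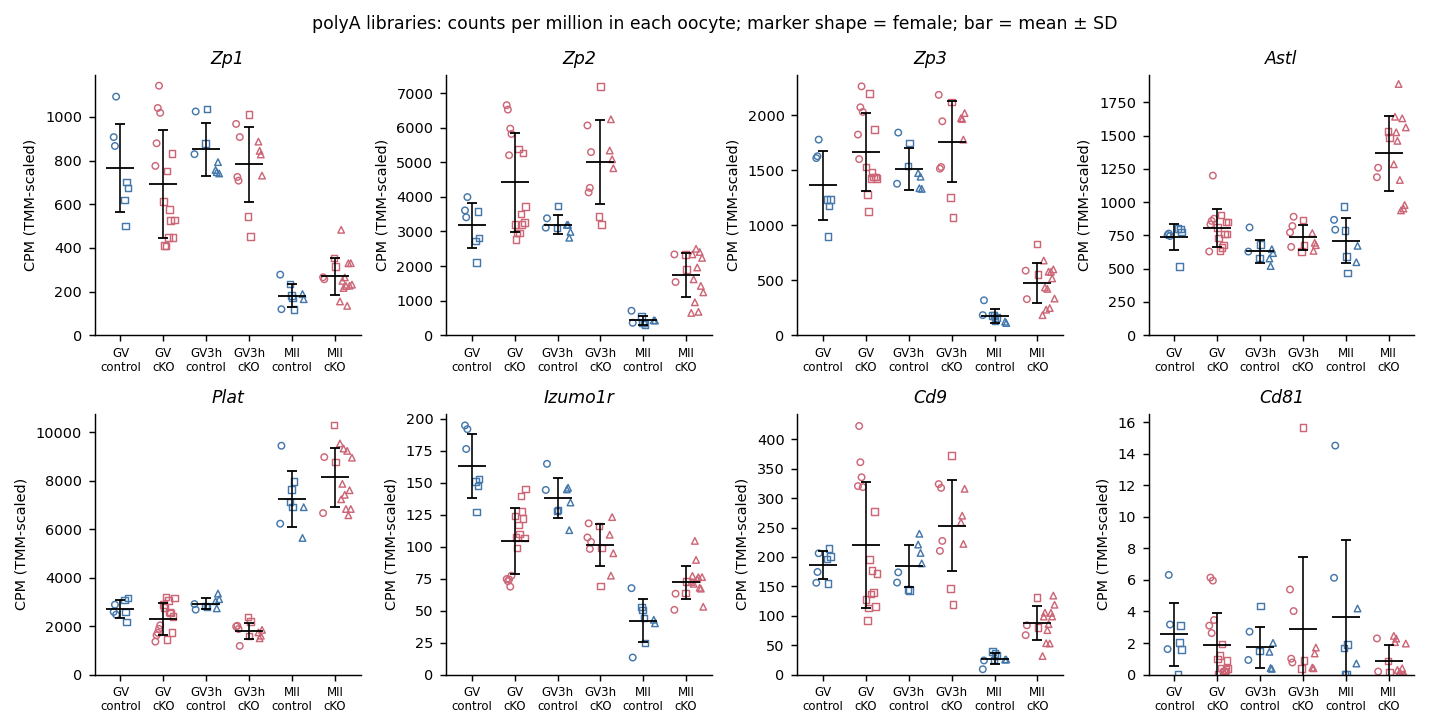
Levels in polyA libraries, in CPM, for each gene by stage and genotype (controls blue, knockouts red). Each point is 1 oocyte, its shape marks the female and the bar is the mean with its SD. In MII eggs Zp2 lies at 309.6 to 708.1 CPM in controls and at 645.1 to 2499 CPM in knockouts, and Plat lies above its GV levels in both.

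The first comparison followed the messages through maturation in controls. In polyA libraries the 3 zona genes, Cd9 and Izumo1r fell from control GV oocytes to control MII eggs, Plat rose, and Astl did not change beyond the spread between oocytes. The test was edgeR's quasi-likelihood test over all genes that passed a filter on low counts, with Benjamini-Hochberg adjustment, and a gene was called at an adjusted p under 0.05. Of the 8 genes 6 were called, 1 higher and 5 lower, where 63.4% of all genes tested were called (30.1% higher and 33.3% lower). The median log2 change was -2.02 over the 8 genes and -0.08 over all genes.

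Zp2 lay at 2103 to 3995 CPM with a median of 3410 in control GV oocytes, and at 309.6 to 708.1 CPM with a median of 392.0 in control MII eggs. No MII egg reached the lowest GV oocyte, and the level was 7.31-fold lower (log2 change -2.87, SE 0.17, adjusted p = 6.52e-11, edgeR). Zp3 went from 896.7, 1233 and 1778 CPM (lowest, median, highest) to 111.1, 170.1 and 317.6 CPM, 7.89-fold lower, again with no overlap. Zp1, the cross-linker of the zona filaments, went from 500.1, 700.9 and 1093 CPM to 117.8, 176.6 and 277.7 CPM. Its change was smaller, 4.22-fold lower, with no overlap. Together the 3 genes took 0.561% ± 0.126 (SD, n = 7) of control GV counts and 0.0640% ± 0.0168 (n = 8) of control MII counts.

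Of the 3 membrane genes Cd9 and Izumo1r fell and Cd81 was not called. Cd9 went from 154.5, 196.5 and 214.2 CPM to 9.04, 25.5 and 38.9 CPM, 6.98-fold lower, and Izumo1r from 126.9, 152.8 and 194.6 CPM to 13.3, 43.4 and 67.5 CPM, 3.90-fold lower. Neither gene had overlapping oocytes. Cd81 was near the limit of detection, at 0 to 6.32 CPM in GV oocytes and 0 to 14.5 CPM in MII eggs, and its log2 change was 0.52 (SE 0.88, adjusted p = 0.63, edgeR).

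The protease genes did not fall. Plat rose from 2174, 2589 and 3168 CPM to 5640, 7019 and 9449 CPM, 2.65-fold higher with no overlap (log2 change 1.41, SE 0.11, adjusted p = 1.15e-09, edgeR). Astl lay at 515.8, 763.5 and 801.7 CPM in GV oocytes and at 465.8, 729.1 and 966.5 CPM in MII eggs, a log2 change of -0.06 (SE 0.14). With library totals in place of the trimmed-mean scaling, the median of all genes shifted by -0.38, and Astl was called lower by 0.44 on the log2 scale (log2 change -0.44). The 6 genes called were the 6 whose oocytes did not overlap, where 38.2% of all genes did not overlap. The Astl-to-Zp2 log2 ratio of counts went from -2.10 to 0.72, a rise of 2.81 with no overlap (exact permutation test, n = 7 and 8, adjusted p = 0.00117 over 45 ratio tests). The share of higher calls over all genes was 31.57% with those totals and 47.51% with the trimmed mean.

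RiboMinus libraries gave another picture of the same interval in controls. The zona genes were not called, with log2 changes of 0.12 (SE 0.12) for Zp1, 0.07 (SE 0.13) for Zp2 and -0.19 (SE 0.14) for Zp3. Cd9 and Izumo1r were higher in MII eggs and Plat was lower. Of 8 genes 3 were called, where 30.9% of all genes were called, and the median log2 change was 0.095 over the 8 and -0.03 over all genes. The 3 MII eggs come from 1 female, so stage and female cannot be told apart here.

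Plat lay at 2036 to 3263 CPM with a median of 2485 in 8 RiboMinus control GV oocytes, and at 603.4, 739.5 and 682.2 CPM in the 3 MII eggs. The eggs lay below every GV oocyte, and the level was 3.75-fold lower (log2 change -1.91, SE 0.15, adjusted p = 2.66e-08, edgeR). Izumo1r lay at 90.0 to 122.4 CPM in GV oocytes and at 206.2, 227.1 and 230.9 CPM in the eggs, all above the GV oocytes and 2.05-fold higher (adjusted p = 1.38e-06, edgeR). For 2 of 8 genes, Plat and Izumo1r, oocytes did not overlap, against 23.1% of all genes. Cd9 lay at 14.3 to 47.4 CPM in GV oocytes and at 54.5, 76.2 and 47.3 CPM in the eggs, with the lowest egg inside the GV range. Its rise (log2 change 1.02, SE 0.26, adjusted p = 0.00491, edgeR) was not called without egg 3 of female V1145 (0.79, adjusted p = 0.0529).

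The difference between the 2 library kinds was tested as an interaction, polyA change minus RiboMinus change. In controls 6 of 8 genes were called, where 49.6% of all genes were called, and the median was -2.32 over the 8 genes and -0.045 over all genes. The differences were -2.02 (SE 0.24) for Zp1, -2.76 (SE 0.23) for Zp2, -2.62 (SE 0.26) for Zp3, -3.65 (SE 0.34) for Cd9 and -2.82 (SE 0.29) for Izumo1r. For Plat it was 3.48 (SE 0.19, adjusted p = 8.4e-16, edgeR), so its polyA level rose while its RiboMinus level fell. Astl gave -0.17 (SE 0.22) and was not called. The RiboMinus control MII eggs all came from 1 female, so these differences cannot be told apart from an effect of that female. Scaling to library totals moved the median of all genes by -0.48, and the share of higher calls over all genes went from 49.35% to 33.81%.

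**Figure D2:**
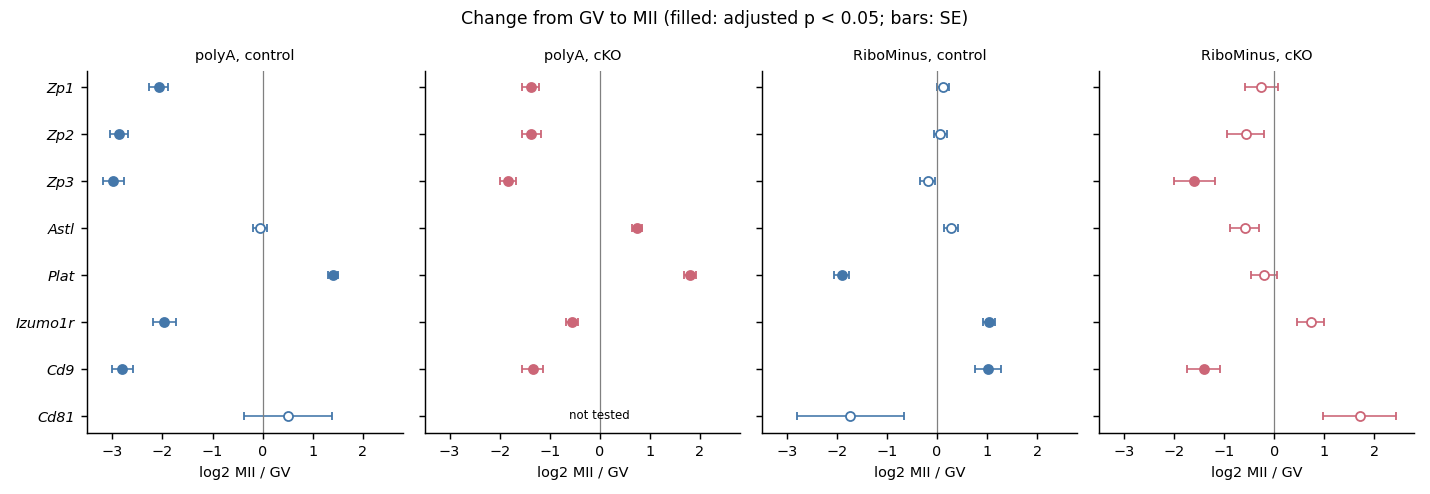
Log2 change from GV to MII for each gene, polyA and RiboMinus, in controls (blue) and knockouts (red), with its SE as the bar and calls at an adjusted p under 0.05 filled. In polyA controls Zp2 and Zp3 sit near -2.87 and -2.98 and Plat at 1.41, while in RiboMinus controls the zona genes sit near 0 and Plat at -1.91.

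**Figure D3:**
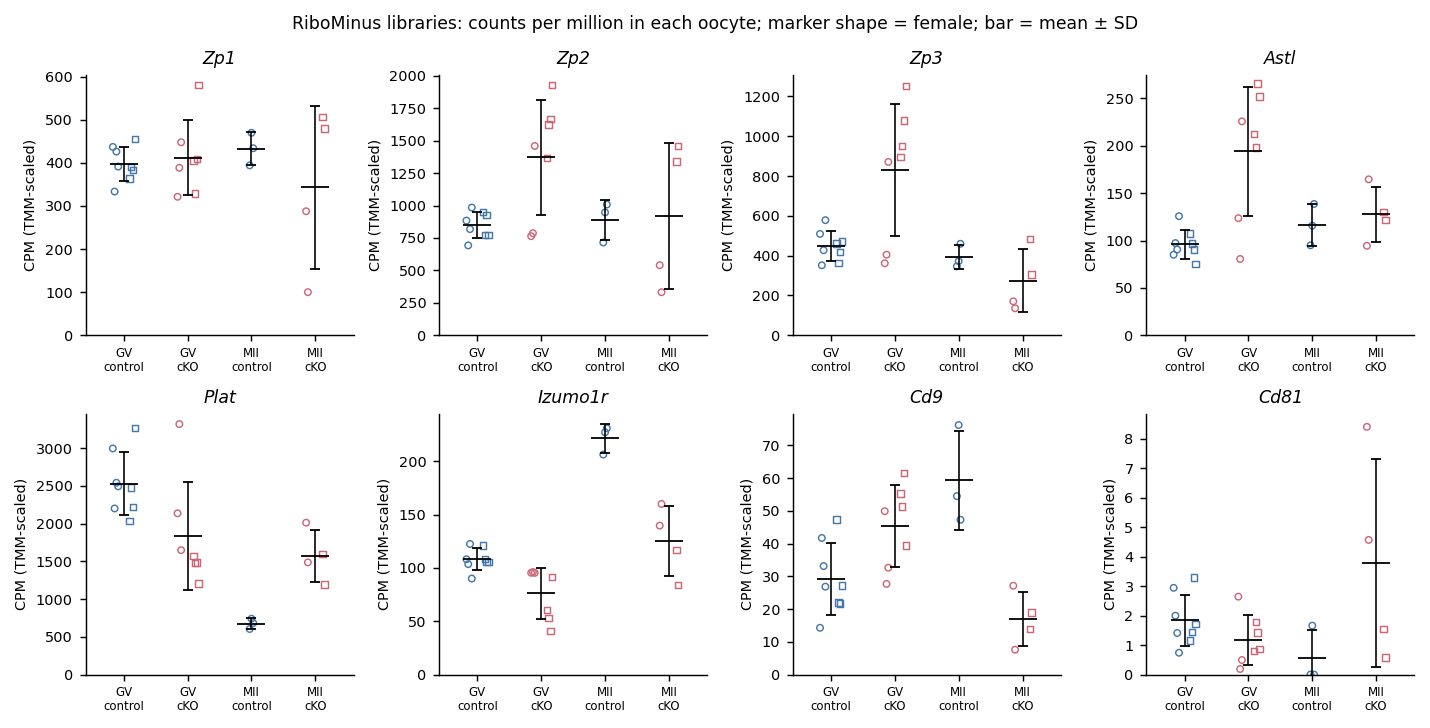
Levels in RiboMinus libraries, in CPM, by stage and genotype. Each point is 1 oocyte, its shape marks the female and the bar is the mean with its SD. Plat in control MII eggs lies at 603.4 to 739.5 CPM, below all GV oocytes, and the 4 knockout MII eggs lie at 1190 to 2012 CPM.

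In polyA libraries of knockout oocytes the zona genes, Cd9 and Izumo1r also fell from GV to MII, and Plat and Astl rose. Of 7 genes tested 7 were called, 2 higher and 5 lower, where 74.8% of all genes were called (33.1% higher and 41.7% lower), and the median log2 change was -1.34 over the 7 and -0.17 over all genes. Cd81 did not pass the filter on low counts. Zp2 went from 2764, 3729 and 6652 CPM in 15 knockout GV oocytes to 645.1, 1902 and 2499 CPM in 15 MII eggs, 2.58-fold lower with no overlap. Zp3 fell 3.57-fold, with no overlap, and Zp1 2.61-fold and Cd9 2.53-fold, with overlap. Plat rose by a log2 change of 1.81 (SE 0.12), with no overlap, and Astl, at 629.0, 808.8 and 1199 CPM and then 937.5, 1460 and 1887 CPM, rose 1.68-fold, with overlap (log2 change 0.75, SE 0.10, adjusted p = 3.43e-08, edgeR). Oocytes did not overlap for 3 genes, against 25.3% of all genes. Izumo1r was called lower at -0.56, but without knockout GV female V888 its value was 0.06 (adjusted p = 0.677, edgeR). Scaling to library totals moved the median of all genes by -0.45, and the share of higher calls over all genes went from 44.28% to 27.94%.

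The difference between genotypes in this change was tested as an interaction, knockout change minus control change. A total of 5 genes, all but Zp1, Cd81 and Plat, were called, each in the direction of a smaller fall or a larger rise in the knockout. They were Zp2 (1.54, SE 0.30, adjusted p = 2.13e-04), Zp3 (1.18, SE 0.28), Astl (0.83, SE 0.18), Cd9 (1.49, SE 0.35) and Izumo1r (1.43, SE 0.24). That is 5 of 8 where 14.7% of all genes were called (9.55% higher and 5.17% lower), and the median was 1.01 over the 8 genes and 0.10 over all genes. With DESeq2's size factors the share of higher calls over all genes went from 64.89% to 49.88%, and with library totals to 52.06%. Zp3 was not called without control GV female V856 (0.89, adjusted p = 0.0507, edgeR). With counts summed per female 0 of 8 were called, where that fit called 0.0722% of all genes, and with the female as a random block in limma voom 2 of 8, where it called 3.53%.

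From GV to GV3h no gene was called in either genotype with all females, where 0.519% of all genes were called in controls and 0.602% in knockouts. These counts depended on single GV females. In knockouts 4 members were called without V857 (Zp1, Zp2 and Cd9 higher, Plat lower), and 1 without V888 (Izumo1r higher), where 7 members changed sign. In controls 2 were called without V856 (Zp1 and Zp3 higher), and 1 without V889 (Izumo1r lower). The shares of all genes called without these females are not given here, so the counts are not read as particular to the members. In controls log2 changes of the 8 genes ran from -0.57 (Cd81) to 0.15 (Zp1), and in knockouts from -0.35 (Plat) to 0.66 (Cd81). The knockout change minus the control change was called for 0 of 8 genes, where 0.0959% of all genes were called.

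The second set of comparisons asked how the knockout differed from the control at each stage. In MII eggs the polyA levels of the zona genes, Astl, Cd9 and Izumo1r were higher in the knockout, and Cd81 lower. Of 8 genes 7 were called, 6 higher and 1 lower, where 37.6% of all genes were called (19% higher and 18.6% lower). The median log2 difference was 0.815 over the 8 genes and 0.04 over all genes.

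Zp2 lay at 309.6, 392.0 and 708.1 CPM (lowest, median, highest) in 8 control eggs and at 645.1, 1902 and 2499 CPM in 15 knockout eggs. Of the knockout eggs 13 of 15 lay above the highest control egg, a level 3.87-fold higher (log2 difference 1.95, SE 0.24, adjusted p = 3.5e-07, edgeR). Zp3 lay at 111.1, 170.1 and 317.6 CPM in controls and at 182.3, 516.7 and 831.0 CPM in knockouts, 2.64-fold higher with 12 of 15 above every control. Zp1 lay at 117.8, 176.6 and 277.7 CPM against 134.6, 256.5 and 482.9 CPM, with 5 of 15 above every control, 1.44-fold higher (log2 difference 0.52, SE 0.18, adjusted p = 0.0262, edgeR). Zp1 was not called without knockout female V842 (0.47, adjusted p = 0.0524), control female V853 (0.46, adjusted p = 0.177) or control female V896 (0.52, adjusted p = 0.0609). The share of counts in the 3 zona genes was 0.209% ± 0.0771 (n = 15) in knockout eggs against 0.0640% ± 0.0168 (n = 8).

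Astl lay at 465.8, 729.1 and 966.5 CPM in control eggs and at 937.5, 1460 and 1887 CPM in knockout eggs, 1.86-fold higher with 13 of 15 above every control (log2 difference 0.90, SE 0.14, adjusted p = 9.57e-06, edgeR). Plat lay at 5640, 7019 and 9449 CPM against 6577, 7875 and 10310 CPM, a log2 difference of 0.12 (SE 0.09) that was not called. Astl passed the threshold and Plat did not, and the difference between the 2 genes was not tested.

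Cd9 lay at 9.04, 25.5 and 38.9 CPM in control eggs and at 31.4, 85.8 and 134.2 CPM in knockout eggs, 3.18-fold higher with 14 of 15 above every control. Izumo1r lay at 13.3, 43.4 and 67.5 CPM against 50.5, 72.3 and 104.4 CPM, 1.66-fold higher with 10 of 15 above every control (log2 difference 0.73, SE 0.19, adjusted p = 0.00263, edgeR). It was not called without knockout female V897, which gave 11 of the 15 eggs (0.56, adjusted p = 0.227). Cd81 lay at 0, 1.79 and 14.5 CPM against 0, 0.290 and 2.45 CPM (log2 difference -2.09, SE 0.81, adjusted p = 0.0414, edgeR). It rested on control female V836, whose 2 eggs held 6.14 and 14.5 CPM, and without that female the value was -0.73 (adjusted p = 0.555). It was not called either without V842 (adjusted p = 0.0681), V897 (adjusted p = 0.293) or V896 (adjusted p = 0.0536).

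For 0 of 8 genes were control and knockout eggs without overlap, against 4.5% of all genes, and for 6 of 8 the means of the females were, against 40.6% of all genes. With counts summed per female 6 of the 7 calls held, where 18.3% of all genes were called, and Cd81 was not called. With the female as a random block in limma voom 5 of the 7 held, where 33.1% of all genes were called, and Zp1 (adjusted p = 0.0563) and Cd81 (adjusted p = 0.271) were not called. Beside these differences, the summed level of the cumulus and granulosa marker genes was 103.2 to 175.2 CPM in control eggs and 93.2 to 158.8 CPM in knockout eggs, with means of 99.0 and 80.5 CPM for Cyp19a1, 23.4 and 27.1 for Nr5a2 and 12.5 and 10.4 for Kitl in controls and knockouts. Of its 11 genes Foxl2, Fshr and Inha were at 0 in all control eggs, and in knockout eggs Fshr averaged 0.565, Inha 0.229 and Ptgs2 3.19 CPM, the last against 0.501 in controls. The summed level of 3 oviduct marker genes was 0.175 to 4.198 CPM in control and 0 to 19.9 CPM in knockout eggs, with medians of 1.43 and 3.44 CPM, and Ovgp1 averaged 0.246 and 2.26 CPM. Their part in the differences was not tested. With library totals the median of all genes moved by 0.10, and 61.94% of all calls were higher against 50.52%. In that fit 7 of the 8 genes were called higher, where 4751 of all 12564 genes tested were called.

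In polyA libraries of GV oocytes Izumo1r was lower in the knockout and no other member was called with all females: 1 of 8 genes was called, where 40.4% of all genes were called, with a median of -0.04 over the 8 and 0.06 over all genes. The called gene was Izumo1r, at 126.9, 152.8 and 194.6 CPM in 7 controls and 68.6, 107.0 and 144.9 CPM in 15 knockouts, 1.59-fold lower (SE of the log2 value 0.15, adjusted p = 8.02e-04, edgeR), with 12 of 15 below every control. With counts summed per female it was not called, in a fit that called 0.00555% of all genes. Within the knockout group the females differed: Zp2 averaged 6035 CPM in V857 and 3623 CPM in V888, Cd9 351.6 and 154.7 CPM, and Izumo1r 73.5 and 119.7 CPM. The count of calls depended on the knockout female kept. Without V888 5 members were called, Zp2, Zp3 and Cd9 higher and Izumo1r and Plat lower, and without V857 3 were, Zp1, Cd81 and Izumo1r, all lower. Zp1 was at -0.48 without V857 and at 0.32 without V888, and Cd9 at -0.28 and 0.89 (log2 differences). Without control female V856 2 members were called. The shares of all genes called without each of these females are not given here, so these counts are not read as particular to the members. For no gene were the oocytes of the genotypes without overlap, against 6.29% of all genes. With library totals the median of all genes moved by 0.15, and the share of higher calls went from 54.28% to 70.27%. In that fit 3 of the 8 genes were called, 2 higher and 1 lower, where 6233 of all 14606 genes tested were called.

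After 3 h in culture 4 of 7 genes tested were called, where 55.5% of all genes were called, with a median of 0.20 over the 7 and 0.03 over all genes. Plat was lower in the knockout, at 2680, 2875 and 3344 CPM in 8 control and 1181, 1844 and 2376 CPM in 11 knockout oocytes, 1.64-fold lower (log2 difference -0.71, SE 0.10, adjusted p = 5.11e-06, edgeR). It was the 1 gene of the 8 whose oocytes did not overlap, against 13.2% of all genes. Zp2 was higher, at 2819, 3151 and 3738 CPM against 3197, 5088 and 7194 CPM, 1.55-fold higher with 9 of 11 above every control. Izumo1r was lower (log2 difference -0.46, SE 0.10), and Cd9 was higher (0.44, SE 0.17, adjusted p = 0.0345, edgeR). Cd9 was not called without knockout female V946 (0.43, adjusted p = 0.0836) or V993 (0.44, adjusted p = 0.0898), or control female V951 (0.39, adjusted p = 0.104) or V982 (0.35, adjusted p = 0.135). When library totals were used, the median of all genes moved by 0.17, and 67.28% of calls were higher against 52.95%. In that fit 4 of the 7 genes tested were called higher and 2 lower, where 7713 of all 13622 genes tested were called.

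**Figure D4:**
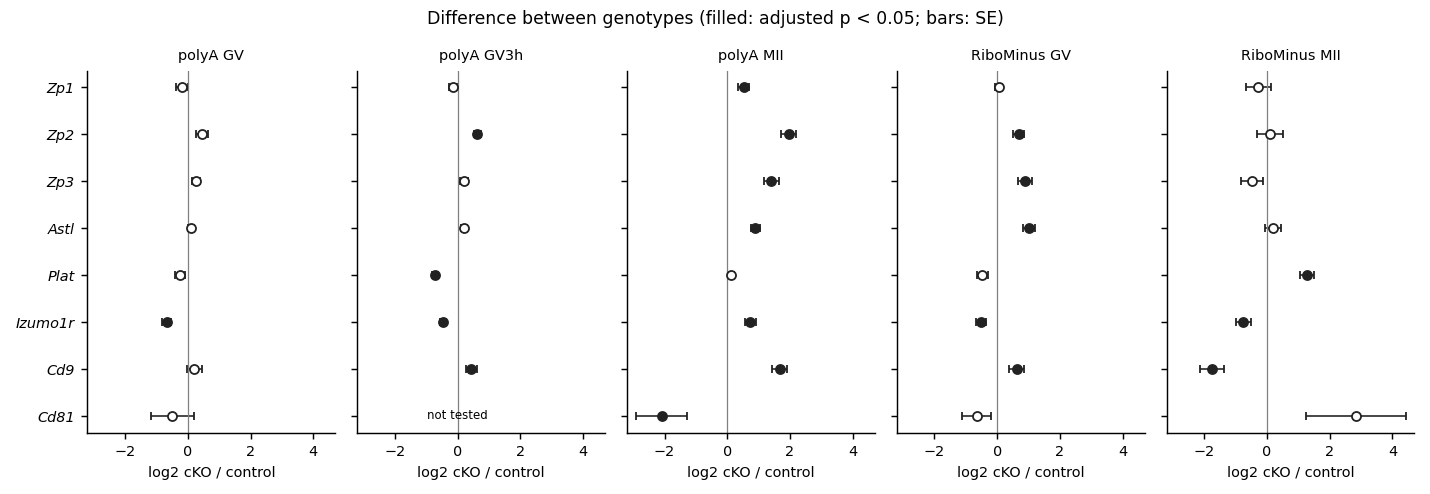
Log2 difference, knockout minus control, for each gene in the 5 comparisons of genotype, with its SE as the bar and calls at an adjusted p under 0.05 filled. In polyA MII eggs Zp2 (1.95), Cd9 (1.67), Zp3 (1.40) and Astl (0.90) lie to the right of 0, and Plat (0.12) is open.

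RiboMinus GV oocytes gave 5 of 8 genes called, where 37.6% of all genes were called, with a median of 0.335 over the 8 and 0.001 over all genes. Zp2 lay at 692.6, 851.0 and 984.5 CPM in 8 controls and at 763.9, 1459 and 1930 CPM in 7 knockouts, 1.61-fold higher. Zp3 lay at 351.4, 443.8 and 578.2 CPM against 361.4, 895.6 and 1253 CPM, 1.85-fold higher. Astl lay at 75.0, 93.7 and 125.7 CPM against 80.5, 212.4 and 265.7 CPM, 2.01-fold higher (log2 difference 1.01, SE 0.20, adjusted p = 0.00184, edgeR). In each of these 3 genes 5 of 7 knockout oocytes lay above every control and the groups overlapped. Cd9 was higher (0.62, SE 0.23) and Izumo1r lower (-0.51, SE 0.17), while Plat missed the threshold (log2 difference -0.47, SE 0.18, adjusted p = 0.0521, edgeR). For no gene were the oocytes without overlap, against 2.42% of all genes.

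These 5 calls rested on knockout female V1131, and without it none of them was made, with Zp2 at 0.25 (adjusted p = 0.535), Zp3 at 0.29 (0.546), Astl at 0.59 (0.219), Cd9 at 0.33 (0.62) and Izumo1r at -0.17 (0.54), by edgeR with adjusted p in parentheses. The share of all genes called without V1131 is not given here, so the loss is not read as particular to these 5 genes. Without control female V1133 none of the 5 was called, and without V1132 only Astl was, though the log2 differences stayed about as large. Without V1133 they were 0.68 for Zp2, 0.82 for Zp3, 0.945 for Astl, 0.63 for Cd9 and -0.49 for Izumo1r. Without V1132 they were 0.67 for Zp2, 0.94 for Zp3, 0.60 for Cd9 and -0.54 for Izumo1r. With counts summed per female 0 of 8 genes were called, where that fit called 0.0149% of all genes, and with the female as a random block 1 of 8, where it called 17.8%. Zp3 averaged 1044 CPM in V1131 and 545.6 CPM in V1126, the other knockout female. With library totals the median of all genes moved by 0.10, and 66.33% of calls were higher against 56.23%. In that fit 4 of the 8 genes were called, all higher, where 5926 of all 15347 genes tested were called.

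In RiboMinus MII eggs 3 of 8 genes were called, where 23.7% of all genes were called, with a median of -0.09 over the 8 and 0.13 over all genes. Plat lay at 603.4, 739.5 and 682.2 CPM in the controls and at 2012, 1486, 1598 and 1190 CPM in the knockouts, 2.43-fold higher (log2 difference 1.28, SE 0.23, adjusted p = 0.00217, edgeR). Cd9 lay at 54.5, 76.2 and 47.3 CPM against 27.1, 7.59, 14.0 and 18.9 CPM, 3.36-fold lower. Izumo1r lay at 206.2, 227.1 and 230.9 CPM against 139.6, 159.9, 116.8 and 83.8 CPM, 1.69-fold lower (adjusted p = 0.0352, edgeR). In these 3 genes no knockout egg lay within the range of the controls, against 36.5% of all genes. Izumo1r was not called without knockout female V1167 (-0.48, adjusted p = 0.133), and leaving out either egg of V1167 or any of the 3 control eggs also ended the call (adjusted p = 0.0804 to 0.115). In those fits with 1 egg left out its log2 difference ran from -0.81 to -0.59, against -0.76 with all eggs. Summed levels of marker genes of other cells also differed between these groups. They were 152.7 to 169.1 CPM in controls and 72.3 to 113.7 CPM in knockouts for 11 cumulus and granulosa genes, 0 to 0.199 against 2.78 to 8.54 CPM for 3 theca genes and 0 against 0 to 13.8 CPM for 3 blood genes. For 3 oviduct genes they were 1.35 to 2.52 against 6.97 to 86.2 CPM. Not every gene moved with the sum of its list. Nr5a2, of the cumulus and granulosa list, averaged 129.0 CPM in controls and 65.45 CPM in knockouts. Fshr (0.884 and 4.22 CPM) and Ptgs2 (1.13 and 8.22 CPM) went the other way. Epcam, of the oviduct list, averaged 1.48 and 0.654 CPM. In control eggs Amh, Foxl2, Tnfaip6, Cyp17a1, Krt18 and the 3 blood genes were at 0, and the part of other cells in the differences of Plat, Cd9 and Izumo1r was not tested.

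The zona genes differed between the 2 knockout females of that group. Zp2 lay at 540.2 and 331.6 CPM in V1166 and at 1341 and 1458 CPM in V1167, around the controls at 715.0, 946.9 and 1008 CPM. The log2 difference of 0.10 (SE 0.41) was not called. Without V1167 it was -0.945 (adjusted p = 0.0315, edgeR), called lower, and without V1166 it was 0.704 and called higher. Zp3 and Zp1 were lower in both eggs of V1166 than in any control egg. Beside this, the summed level of the oviduct marker genes was 81.96 to 86.2 CPM in the 2 eggs of V1166 and 6.97 to 10.3 CPM in those of V1167. In the knockout eggs most of it was Ovgp1, and its part in these levels was not tested.

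Within the knockout, RiboMinus levels from GV to MII were called for 2 of 8 genes, where 16.1% of all genes were called, with a median of -0.41 over the 8 and 0.002 over all genes. Zp3 was lower (log2 change -1.59, SE 0.40, adjusted p = 0.0177, edgeR), and Cd9 was lower with no overlap (-1.41, SE 0.34), against 11.5% of all genes without overlap. Zp3 was not called without V1131 (-0.999, adjusted p = 0.245), V1166 (-1.08, adjusted p = 0.166) or either egg of V1166 (adjusted p = 0.0595 and 0.0518). Cd9 was not called without V1131 (-1.12, adjusted p = 0.174) or V1167 (-1.36, adjusted p = 0.0764). Counts summed per female gave 0 of 8 calls, in a fit that called 0 of 20796 genes, and the random block 1 of 8, where it called 4.65% of all genes. The knockout change minus the control change was called for 3 of 8 genes, where 14.8% of all genes were called, with a median of -0.51 over the 8 and 0.04 over all genes. It was -2.44 (SE 0.45) for Cd9, 1.68 (SE 0.31) for Plat and -1.41 (SE 0.43, adjusted p = 0.0299, edgeR) for Zp3. Zp3 was not called without V1131 (-0.80), V1132 (-1.47), V1133 (-1.35) or V1166 (-0.88), nor without either egg of V1166 or without egg 3 or 4 of V1145 (adjusted p = 0.0516 to 0.226).

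In the knockout the polyA change minus the RiboMinus change was called for 4 of 8 genes, where 45.6% of all genes were called, with a median of -0.27 over the 8 and -0.08 over all genes. It was 2.26 (SE 0.28) for Plat, 1.58 (SE 0.25) for Astl, -1.05 (SE 0.26) for Izumo1r and -0.88 (SE 0.34, adjusted p = 0.0318, edgeR) for Zp1. Zp2 (-0.55, SE 0.39) and Zp3 (0.002, SE 0.36) were not called. Zp1 was not called without V1167 (-0.06, adjusted p = 0.924), V857 (-0.65), V897 (-0.79), V1126 (-0.89) or V1131 (-0.97), nor without either egg of V1167 (-0.64 and -0.68). Izumo1r was not called without V888 (-0.57) or V1166 (-0.72). Counts summed per female gave 2 of 8 calls, where 12.2% of all genes were called. When library totals were used, the median of all genes moved by -0.65, and the share of higher calls went from 50.45% to 23.71%, or to 40.07% with DESeq2's size factors.

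Apart from the 0.5 added counts, ratios within an oocyte do not depend on the library total. Of 45 ratio tests (5 ratios, 9 comparisons) 23 had an adjusted p under 0.05. Among these are tests of the Cd9-to-Cd81 ratio, whose denominator was near 0, so that the added counts and the depth affect it. The Zp1-to-Zp3 log2 ratio was lower in the knockout in polyA GV (-0.48, exact permutation test, adjusted p = 0.0023), GV3h (-0.34, no overlap, adjusted p = 1.98e-04) and MII oocytes (-0.85, adjusted p = 0.00665), and in RiboMinus GV oocytes (-0.75, adjusted p = 0.0184). In RiboMinus MII eggs the difference was 0.11 (exact permutation test, adjusted p = 0.857). The Zp2-to-Zp3 ratio was higher in knockout GV3h (0.42, no overlap) and MII oocytes (0.52) in polyA libraries. The Astl-to-Zp2 ratio was lower in polyA knockout MII eggs by 0.98 (log2 difference -0.98, exact permutation test, adjusted p = 0.00382), and in GV3h (-0.40, adjusted p = 0.0184). It was higher in RiboMinus knockout GV oocytes (0.31, exact permutation test, adjusted p = 0.0493). From GV to MII it rose by 2.15 in polyA knockouts with no overlap. With the means of females as the unit 0 of the 35 ratio tests that could be run passed, and an exact test of so few females could not go below p = 0.1.

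Across the 10 groups, each zona gene was compared with the other genes. Likeness was Pearson's r of mean log2 CPM, centred within polyA and within RiboMinus libraries, and it is a description over 10 groups that share stages and genotypes. It was 0.96 between Zp2 and Zp3, 0.945 between Zp1 and Zp3, 0.903 between Zp1 and Zp2 and 0.93 between Cd9 and Zp3. Plat went the other way from the zona genes, with r from -0.77 to -0.66, and Astl had r from -0.35 to 0.34 with the other members. Among the 8023 genes ranked by likeness, Zp3 stood in place 46 for Zp2, and for Zp1 it stood in place 455 and Zp2 in place 901. The zona genes were thus not the nearest genes to each other.

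The genes most like Zp1 were Smim7, Sec22a and Agpat2 (each r = 0.992), those most like Zp2 were Isca1 (0.995), Tep1 (0.99) and Fam222a (0.987), and those most like Zp3 were Ogfod2 (0.996), Heatr1 (0.992) and 1110020A21Rik (0.984), out of 8023. For Astl they were Rmi1 (0.985), Cacfd1 (0.914) and Ogdh (0.913), and for Plat Lbr (0.991), D6Ertd527e (0.988) and Rhot1 (0.987). For Cd9 they were Rps4l (0.996), Lrpprc (0.98) and Prkcd (0.974), and for Izumo1r Gm48704 (0.987), Fetub (0.987) and Epp13 (0.976). For Cd81, whose level is near 0, they were Thoc6 (0.947), Rps6ka3 (0.875) and Rnf185 (0.869).

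Other genes of the egg coat, granules and membrane were followed in lists of 6, 14, 11, 7 and 7 genes. Their counts in the other comparisons of genotype stand against 40.4% of all genes called in polyA GV, 55.5% in GV3h, 37.6% in RiboMinus GV and 23.7% in RiboMinus MII oocytes. In polyA MII eggs the partners of the egg coat were higher in the knockout for 2 of 5 tested and lower for none, where 19% of all genes were higher and 18.6% lower. In the other comparisons of genotype 0 were higher and 3 lower in polyA GV oocytes, 0 and 3 in GV3h, 1 and 2 in RiboMinus GV and 1 and 1 in RiboMinus MII. In polyA MII eggs Fetub, which encodes fetuin-B, the inhibitor that keeps ovastacin from hardening the zona early, was higher by 1.27 (SE 0.25), and Oosp2, an oocyte-secreted protein gene, by 0.86 (SE 0.14). Fetub was lower in knockout polyA GV (-0.83, SE 0.25) and GV3h oocytes (-0.72, SE 0.21), and Oosp2 in RiboMinus MII eggs (-1.51, SE 0.31). Oosp1 and Oosp3 were lower in polyA GV, GV3h and RiboMinus GV oocytes, from -1.13 to -0.39. From control GV to MII Fetub fell by 2.91 and Oosp2 by 2.16 on the log2 scale, while Oosp1 (1.58), Oosp3 (1.17) and Furin (0.92), a proprotein convertase, rose. Fetub thus moved as the zona genes did in polyA controls, and Oosp1 and Oosp3 did not. In RiboMinus controls Fetub was higher in MII eggs (adjusted p = 1.1e-06, edgeR), as Izumo1r was.

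Of 14 genes of granule traffic and exocytosis, 3 were higher and 2 lower in polyA knockout MII eggs, a share near the 37.6% of all genes called there. The chaperones Calr, of the endoplasmic reticulum and also seen in cortical granules, and Hsp90b1 were higher by 1.69 (SE 0.18) and 1.51 (SE 0.16). In RiboMinus MII eggs Hsp90b1 was lower in the knockout (-0.84, SE 0.24, adjusted p = 0.0225, edgeR) and Calr was not called (0.14, SE 0.23). The small GTPase genes Rab8b and Rab27a were lower (-1.31 and -0.69). Rab27a, which acts in cortical granule transport, was called lower in all 5 comparisons of genotype, from -1.20 in GV3h to -0.53 in polyA GV oocytes, and Rab8b in 4 of 5. In polyA GV oocytes 2 of 14 were higher and 2 lower (40.4% of all genes called), in GV3h 3 and 2 (55.5%), in RiboMinus GV 4 and 2 (37.6%), and in RiboMinus MII 0 and 3 (23.7%).

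Of 11 partners of tetraspanins, integrins and the anchor of Juno, 9 were tested in polyA MII eggs, with 1 higher and 2 lower, a share near the 37.6% of all genes called. Pigt, a subunit of the enzyme that attaches the GPI anchor, was called higher in all 5 comparisons, from 1.01 (polyA GV) to 1.97 (RiboMinus MII). Ptgfrn, a partner of CD9, was lower in polyA knockout MII eggs (-1.45, SE 0.36) and higher in GV3h (2.15, SE 0.44) and RiboMinus GV oocytes (2.11, SE 0.45). Of the plasminogen system 2 of 7 genes were tested in polyA MII eggs, and Serpine2, which encodes a serpin that inhibits plasminogen activators, was lower (-0.29, SE 0.08). From control GV to MII its polyA level rose by 1.33 (SE 0.09).

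The 7 regulators of zona transcription and mRNA storage were followed as the last list. In polyA knockout MII eggs 5 of 7 were higher and none lower, where 19% of all genes were higher and 18.6% lower: Ybx2, an mRNA-storage protein (1.39, SE 0.27), Cpeb1 (1.14, SE 0.12), Figla, the transcription factor of the zona genes (1.11, SE 0.36), Nobox (0.65, SE 0.13) and Taf4b (0.56, SE 0.16). Nobox was lower in the knockout in RiboMinus MII eggs (-0.78, SE 0.20), and Cpeb1 in polyA GV (-0.39, SE 0.08) and GV3h oocytes (-0.25, SE 0.10). From control GV to MII 5 of the 7 fell and 1 rose, where 33.3% of all genes fell and 30.1% rose, with Figla at -4.14 (SE 0.32) and Ybx2 at -2.28 (SE 0.27). Cpeb1 fell by 1.58 in polyA and by 1.66 in RiboMinus controls on the log2 scale. In polyA GV oocytes 2 regulators were higher and 2 lower (40.4% of all genes called), in GV3h 3 and 2 (55.5%), in RiboMinus GV 3 and 0 (37.6%), and in RiboMinus MII 2 and 1 (23.7%). Over all 5 lists 37 of 45 genes were tested in polyA MII eggs, with 11 higher and 5 lower in the knockout, near the share of all genes called there.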

How the data were processed

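The authors deposited raw counts of reads per Ensembl gene for each single oocyte. Per the submitters' processing notes, they used cutadapt 2.5, FastQC 0.11.8, STAR 2.7.2a, SAMtools 1.9, HTSeq 0.9.1, R 3.5.1, DESeq2 1.24.0 and mm10. The annotation release, strand setting and treatment of duplicates are not given in the sources used here. The labels name ERCC spike-ins, and the files used here hold 0 lines with ERCC names, so levels are relative. Summary lines (reads in no feature, 5.85% to 14.17% in polyA and 8.34% to 12.4% in RiboMinus libraries) were left out, and 22 ribosomal RNA libraries were not used.

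Counts were tested with edgeR 4.0.16 (quasi-likelihood, trimmed-mean scaling, R 4.3.3) on oocytes of the groups compared, over all genes past edgeR's filter on low counts, with Benjamini-Hochberg adjustment over all of them and a threshold of 0.05. Printed CPM are counts divided by the library total times its trimmed-mean factor, set over all libraries of a kind, and are no plain shares of a library; zona shares are of unscaled counts. The SE is the log2 change divided by the square root of the F statistic. Ratios used 0.5 added counts and exact permutation tests over oocytes, or 100000 resamples for 15 against 15 oocytes, two-sided, adjusted over 45 tests. Likeness used genes whose mean log2 CPM reached 3 in both library kinds. Alternatives were DESeq2 1.42.0, other scalings and filters, sums of counts over each female's oocytes, voom in limma 3.58.1 with a female block, and leaving out each female or, in groups of up to 5, each oocyte. Python 3.11.15, numpy 2.4.6, pandas 2.3.3, scipy 1.17.1 and matplotlib 3.10.9 did the rest, and the scripts were tested on simulated data. The members and lists were chosen with earlier results of these data known. The rule for named genes took all 8 members, Exosc10, list genes called in at least 2 comparisons or with the largest change of their list, and the 3 genes most like each member. No library pair was a duplicate.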

Additional observations from a re-analysis of the deposited data

Results flagged for a closer look

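Levels of the 8 members gave 48 sets of values, and the 5 ratios 30, over the groups of 4 to 10 oocytes. In 5 of these sets 1 oocyte stood apart from the rest by Dixon's criterion, which chance alone meets in about 1 in 20 sets. Egg 2 of control female V836 held 317.6 CPM of Zp3 in polyA libraries, with the next egg at 182.9 CPM, and 14.52 CPM of Cd81, with the next egg, from the same female, at 6.135 CPM. GV oocyte 2 of control female V889 held 515.8 CPM of Astl, with the next at 745.0 CPM. In GV oocyte 3 of V889 the Zp2-to-Zp3 log2 ratio was 1.61, with the next at 1.23, and in oocyte 1 the Cd9-to-Cd81 log2 ratio was 11.21, with the next at 6.91, where Cd81 was at 0.

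The change from GV to MII differed between genotypes by edgeR's interaction test. In polyA libraries the knockout change exceeded the control change by 1.54 for Zp2, 1.18 for Zp3, 0.83 for Astl, 1.49 for Cd9 and 1.43 for Izumo1r on the log2 scale. In RiboMinus libraries it differed by -1.41 for Zp3, -2.44 for Cd9 and 1.68 for Plat, with all control eggs from 1 female.

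The change also differed between polyA and RiboMinus libraries. In controls the polyA change minus the RiboMinus change was -2.02 for Zp1, -2.76 for Zp2, -2.62 for Zp3, -3.65 for Cd9, -2.82 for Izumo1r and 3.48 for Plat, with all RiboMinus control MII eggs from 1 female. In knockouts it was -0.88 for Zp1, 1.58 for Astl, -1.05 for Izumo1r and 2.26 for Plat.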

How the results depend on the processing

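Of 1896 fold changes of members under alternatives, 1735 kept their side of the threshold, 92 fell short of it, 66 newly passed it and 3 turned round with a call in 1 of the fits. Values below the threshold in both fits also changed sign in places, and these are among the 1735. Of 385 ratio values 305 kept their side, 69 fell short, 10 newly passed and 1 turned round. The 10 zona shares had 1 alternative, without mitochondrially encoded genes, and moved by less than their SD. Leaving out 1 female moved the Zp2 genotype difference in RiboMinus MII eggs from 0.096 to between -0.945 (V1167) and 0.704 (V1166). It moved the change of Izumo1r in polyA knockouts from -0.044 to between -0.254 (V857) and 0.481 (V888) at GV3h, and from -0.559 to between -0.748 (V857) and 0.062 (V888) at MII. The change of the Astl-to-Zp2 ratio in RiboMinus knockouts went from 0.225 to between -0.63 (V1166) and 1.081 (V1167).

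Members called by genotype in polyA GV oocytes numbered 1, and 2 with DESeq2, DESeq2's size factors or a mean of at least 50 counts, 3 with library totals and 0 with counts summed per female. In RiboMinus GV oocytes 5 became 0 with counts summed per female and 1 with the female as a random block in limma voom. From GV to MII in RiboMinus knockouts 2 became 0 and 1, and for the genotype difference in polyA MII change 5 became 0 and 2. In the polyA against RiboMinus comparison of knockouts 4 became 2 with counts summed per female. Of the ratio tests 23 passed, and 0 with the means of females.

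Leaving out 1 female or egg at a time gave 1 to 5 members called by genotype in polyA GV, 3 to 6 in GV3h, 5 to 7 in MII, 0 to 6 in RiboMinus GV and 2 to 4 in RiboMinus MII oocytes. From GV to GV3h it gave 0 to 2 in controls and 0 to 4 in knockouts, and from GV to MII 6 and 7 in polyA controls and knockouts, 3 in RiboMinus controls and 0 to 4 in RiboMinus knockouts. For the differences in change it gave 0 to 1 (polyA GV3h), 4 to 6 (polyA MII), 2 to 6 (RiboMinus MII), 6 to 7 (library kinds, controls) and 3 to 4 (library kinds, knockouts). The shares of all genes called in these fits are not given here, so the ranges are not read as particular to the members. Causes were not tested.

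No paired analysis was possible because no female gave oocytes to 2 of the groups compared. Depth limits Cd81, whose group means ran from 0.553 to 3.77 CPM.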

Other observations

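Of the 13 granule traffic and exocytosis genes tested from GV to MII in control polyA libraries 3 rose and 4 fell, where 30.1% of all genes tested rose and 33.3% fell. Napa, a cofactor of the SNARE-recycling ATPase, was at -2.77 (SE 0.38), Nsf, that ATPase, at -0.34 (SE 0.12) and Padi6 at -1.40 (SE 0.17) on the log2 scale. The SNARE genes Snap23 (0.89, SE 0.14) and Vamp3 (0.78, SE 0.19) rose. In RiboMinus controls 6 of 14 rose and 1 fell, where 30.9% of all genes were called, with Rab11a at 0.80 (SE 0.11), Napg at 0.52 (SE 0.18), Padi6 at 1.09 (SE 0.13) and Vamp3 at -0.55 (SE 0.20). Vamp1 was higher in knockout GV3h oocytes (1.07, SE 0.24) and RiboMinus GV oocytes (0.90, SE 0.26).

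Among partners of the fusion proteins 5 of 10 rose and 3 fell from GV to MII in polyA controls, where 30.1% of all genes tested rose and 33.3% fell. Integrin genes Itga9 (1.58, SE 0.14), Itga6 (1.08, SE 0.09) and Itgb1 (0.40, SE 0.17) rose, as did Piga (0.88, SE 0.12), the catalytic subunit of the first step of the GPI anchor. Cd151, another tetraspanin, was at -2.04 (SE 0.32), Igsf8, a partner of CD9 and CD81, at -2.40 (SE 0.74) and Gpaa1 at -1.68 (SE 0.72). Itgav was higher in knockouts in polyA GV (1.95, SE 0.43), GV3h (1.67, SE 0.48) and RiboMinus GV oocytes (2.04, SE 0.32). Of the regulators, Tcf3 rose in polyA controls (0.71, SE 0.21) and Zar1 was at -0.59 (SE 0.14). Plaur, the urokinase receptor gene, was higher in knockout polyA GV oocytes (2.10, SE 0.70). Itga3 was near the limit of detection in polyA libraries, at 0 CPM in all 8 control MII eggs and at 0 to 3.79 CPM in knockout MII eggs, and it did not pass the filter on low counts in the polyA comparisons of genotype.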
